A study of Mus musculus with 70 samples.

Results

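The Wnt pathway genes described here are the 58 genes, of 22835 in the pituitary RNA-seq table, whose symbols name a Wnt ligand, an R-spondin, a Frizzled, an LRP5/6 or LGR receptor, a secreted inhibitor (SFRP, DKK, WIF1), a Dishevelled, β-catenin, a member of the destruction complex (AXIN, APC) or a TCF/LEF factor. They were picked by a rule on symbols that was set with earlier results of these data known. Where a gene had several transcripts, the transcript with the highest mean CPM (the reads of a transcript scaled to a common library total) stood for it. The set held 19 Wnt ligands, 4 R-spondins, 10 Frizzled receptors, 2 LRP co-receptors, 3 LGR receptors, 9 secreted inhibitors, 3 Dishevelled proteins, 4 genes of β-catenin and its destruction complex and 4 TCF/LEF factors. CPM was above 1 in all 18 libraries for 34 of the 58, and these 34 entered the tests with 13145 genes in all.

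Wnt ligands are secreted lipid-modified proteins that bind Frizzled receptors together with the co-receptors LRP5 and LRP6. In the canonical branch this stops a complex of AXIN, APC and kinases from marking β-catenin for destruction, and β-catenin then enters the nucleus and works with TCF/LEF factors on target genes. R-spondins acting through LGR receptors strengthen the signal, whereas SFRP, DKK and WIF1 proteins bind ligands or co-receptors and weaken it. Other Wnts, such as WNT5A, act mainly without β-catenin. In the pituitary the pathway is known for its part in the growth of the gland in the embryo, and activating β-catenin mutations underlie a class of human tumours of the pituitary region.

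The study asked how thyroid hormone (T3) and its receptor TRβ control pituitary genes. RNA-seq libraries were made from whole pituitaries of adult male C57BL/6J mice, wild type or *Thrb*-KO (lacking TRβ), with a pool of 3 pituitaries in each library. All mice received 0.05% methimazole (MMI, which blocks thyroid hormone synthesis) and 1% potassium perchlorate in the drinking water for 4 to 5 weeks, and the hyperthyroid groups received 0.5 µg/ml T3 as well in the final week, so that no group was untreated. Each treatment had 4 libraries from wild-type and 5 from *Thrb*-KO mice. TRβ binding was mapped by chromatin affinity purification (ChAP-seq) in pituitary and in cerebral cortex of untreated male mice. They carried a tagged receptor (*Thrb* HAB/HAB) and the biotin ligase BirA at *Rosa26*, and were compared with BirA mice without the tag. The study also mapped TRβ in hypothyroid and hyperthyroid pituitaries, and the paper reports sites whose binding T3 induced or abolished. The peak lists used here are those of untreated mice. Open chromatin was compared between hypothyroid and hyperthyroid mice by ATAC-seq on nuclei that *Thrb*2-Cre had marked with Sun1-GFP, which covers only pituitary cells with a history of the TRβ2 isoform.

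Read counts summed over all transcripts came to 21453548 to 55273749 per library, with a median of 34673225. Transcripts of a gene could repeat nearly the same level, as for *Ctnnb1* with 325 and 320 CPM on average. These sums can therefore count a read more than once. A count of 3 reads, taken as the limit of detection, corresponds to 0.0901 CPM on average. Replicates 1 and 2 of every group differed from replicates 3 to 5 in many genes, as *Lars2* shows with 2571 to 3420 CPM against 53.2 to 95.1 CPM, and changes are therefore also given within each set. Hyperthyroid wild-type replicate 3 stood apart in composition, with a TMM scaling factor of 0.849 where all others lay between 0.982 and 1.04. RNA of the targeted gene *Thrb* was at 271 ± 20.1 and 260.2 ± 32.0 CPM (SD, n = 5 each) in hypothyroid and hyperthyroid libraries labelled *Thrb*-KO, and at 257 ± 27.3 and 104 ± 22.8 CPM (SD, n = 4 each) in wild type, so that no fall was seen with the label. The table counts reads along the whole transcript, so that this level does not test the genotype, and *Thrb*-KO below names the libraries by their labels. In pooled whole tissue, fewer cells of a type and less RNA per cell cannot be told apart.

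The pathway was expressed unevenly across its roles. To compare levels between genes, mean CPM over the 18 libraries was divided by the length of the longest coding transcript in kb. The lengths came from the GENCODE annotation, and that transcript need not be the RefSeq one that was counted. Close ranks can depend on this choice. *Ctnnb1*, which encodes β-catenin, had the highest level per length, 89.7 CPM per kb. *Fzd3* led the Frizzled receptors with 22.7, *Dvl3* the Dishevelled genes with 21.7, and *Lrp6* exceeded *Lrp5* with 17.3 against 8.33 CPM per kb. *Dkk3*, a divergent DKK family member that is unlike DKK1 in not binding LRP5/6, had 11.1 CPM per kb, the highest level per length among the secreted inhibitors. The ligands were far lower, with *Wnt10a* at 4.43 and *Wnt9a* at 4.16 CPM per kb as the highest of the 19. Among LGR receptors *Lgr4* had 8.39 CPM per kb and *Lgr5*, known as a stem cell marker in many epithelia, 0.810. *Tcf7l1* led the TCF/LEF factors per length with 3.01 CPM per kb, and *Rspo4* the R-spondins with 1.51.

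**Figure D1:**
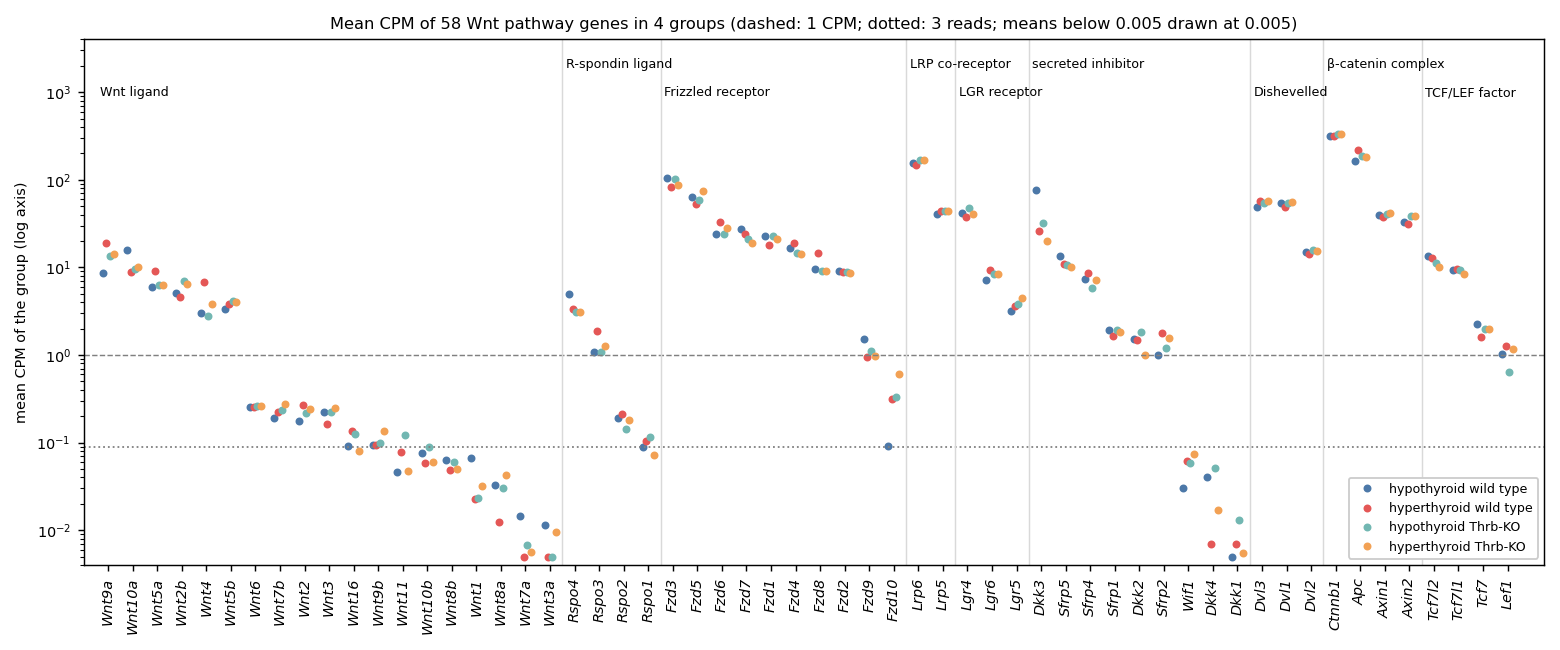
Each column is a member, grouped by role and ordered by mean CPM within it, and each point is the mean CPM of a group of libraries on a log axis (4 wild-type or 5 *Thrb*-KO libraries). *Ctnnb1* lies at 317 to 331 CPM in all groups, and 13 of the 19 Wnt ligands lie below the dashed line at 1 CPM. The groups separate visibly for the called members *Dkk3*, *Wnt9a*, *Wnt4* and *Wnt10a*. They also spread apart for some genes of low CPM, such as *Fzd10*, at 0.0925 CPM in hypothyroid wild type and 0.315 to 0.612 CPM in the others.

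T3 changed 4 of the 34 tested members in wild-type pituitaries, and 3 of these 4 encode Wnt ligands. *Wnt9a* and *Wnt4* rose, and *Dkk3* and *Wnt10a* fell. Receptors, co-receptors, Dishevelled genes, β-catenin, the destruction complex and TCF/LEF factors held no called member. Calls came from a limma model of log2(CPM + 1) over all tested genes and needed both a Benjamini-Hochberg adjusted p below 0.05 and a difference of 1.5-fold or more. Fold changes are on that log2 scale, which understates the change of low genes. The rule called 1244 of the 13145 genes, 9.46%, so that 4 of 34 (11.8%) lies near the share for all genes. The median log2 fold change was -0.07 over the 34 members and -0.04 over all genes tested. The 4 hyperthyroid and 4 hypothyroid libraries did not overlap for 5 of the 34 members, where 17.4% of all tested genes were separated in this way.

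*Wnt9a* encodes a ligand known for its part in joint and skeletal development. Hypothyroid wild-type libraries 1 to 4 held 8.79, 8.80, 9.30 and 8.01 CPM of *Wnt9a*. The hyperthyroid wild-type libraries held 20.8, 18.1, 16.2 and 21.5 CPM. Every hyperthyroid library was thus above every hypothyroid one, with a log2 fold change of 1.04 ± 0.11 (SE, limma adjusted p = 8.06e-07). It was 1.06 within replicates 1 and 2 and 1.03 within replicates 3 to 5. In hypothyroid *Thrb*-KO libraries 1 to 5 *Wnt9a* had 12.5, 13.5, 13.5, 12.5 and 15.1 CPM, and in hyperthyroid *Thrb*-KO 13.7, 11.6, 14.5, 14.1 and 16.5 CPM. These *Thrb*-KO groups overlapped and both lay between the wild-type groups in mean, at 13.4 ± 1.07 and 14.1 ± 1.76 CPM (SD, n = 5 each) against 8.73 ± 0.531 and 19.1 ± 2.43 CPM (SD, n = 4 each). The log2 change with T3 in *Thrb*-KO was 0.06 (limma adjusted p = 1).

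*Wnt4* encodes a ligand needed for the development of the kidney, the female reproductive tract and the pituitary. It was lower than *Wnt9a* in CPM, with 3.77, 3.18, 3.03 and 2.10 CPM in the hypothyroid wild-type libraries. In the hyperthyroid wild-type libraries *Wnt4* had 5.29, 7.42, 6.85 and 7.77 CPM, again without overlap. The log2 fold change of *Wnt4* was 0.97 ± 0.16 (SE, limma adjusted p = 2.54e-04), 0.71 within replicates 1 and 2 and 1.23 within replicates 3 to 5. In *Thrb*-KO it had 2.56, 2.36, 2.82, 2.86 and 3.23 CPM under hypothyroidism and 3.59, 2.53, 5.05, 4.67 and 3.12 CPM under T3. The *Thrb*-KO groups overlapped, and the log2 change of *Wnt4* was 0.32 with limma adjusted p = 0.544.

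*Wnt10a* encodes a canonical ligand known from teeth, hair and skin. It had 20.8, 18.1, 11.9 and 11.8 CPM in the hypothyroid wild-type libraries. With T3 it had 10.3, 9.78, 8.39 and 7.09 CPM in wild type, every library below the lowest hypothyroid one. The log2 fold change of *Wnt10a* was -0.72 ± 0.18 (SE, limma adjusted p = 5.76e-03). The library sets differed in level here: within replicates 1 and 2 the change was -0.88 (limma adjusted p = 2.87e-05), and within replicates 3 to 5 it was -0.56 (limma adjusted p = 0.0692), short of both the fold limit and the p limit. In *Thrb*-KO *Wnt10a* was between 8.58 and 11.0 CPM in hypothyroid and between 8.23 and 12.7 CPM in hyperthyroid libraries, a log2 change of 0.08 (limma adjusted p = 1). Without hypothyroid wild-type replicate 1 the wild-type change was -0.58 and no longer passed the fold limit, and with the wild-type groups fitted alone its limma adjusted p was 0.0506.

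*Dkk3* had the largest change among the 34 members. The hypothyroid wild-type libraries held 69.0, 64.9, 79.5 and 89.0 CPM of *Dkk3*, and the hyperthyroid ones 22.1, 26.9, 22.8 and 32.7 CPM. The groups were far apart, with a log2 fold change of -1.50 ± 0.12 (SE, limma adjusted p = 2.72e-08), a 2.83-fold difference. It was -1.42 within replicates 1 and 2 and -1.59 within replicates 3 to 5. *Dkk3* was also the only tested member called for T3 in *Thrb*-KO, where 133 of 13145 genes (1.01%) were called. There it had 31.2, 32.2, 32.3, 33.1 and 33.5 CPM in hypothyroid and 18.7, 18.3, 22.9, 21.4 and 19.7 CPM in hyperthyroid libraries. These libraries did not overlap, and the log2 change of *Dkk3* in *Thrb*-KO was -0.66 ± 0.10 (SE, limma adjusted p = 9.63e-04).

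**Figure D2:**
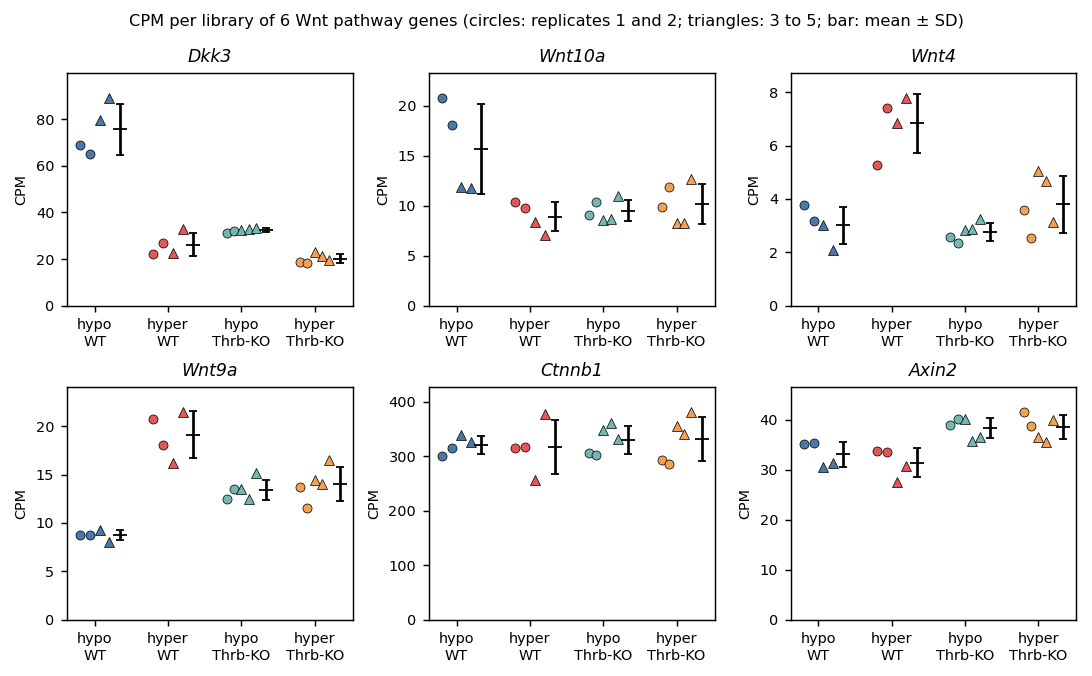
Each panel plots CPM per library (y axis from 0) for a member in hypothyroid (hypo) and hyperthyroid (hyper) wild-type (WT) and *Thrb*-KO libraries, with circles for replicates 1 and 2, triangles for replicates 3 to 5 and a bar for the mean ± SD (n = 4 or 5). *Dkk3* in hypothyroid wild type lies at 64.9 to 89.0 CPM, above all other libraries, *Wnt9a* in both *Thrb*-KO groups lies between the wild-type groups in mean, and *Ctnnb1* overlaps in all 4 groups.

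The difference between the responses of the genotypes was tested as an interaction, the *Thrb*-KO response minus the wild-type response, which called 560 of 13145 genes (4.26%). It called 2 of the 34 members. For *Wnt9a* the responses differed by a log2 value of -0.99 ± 0.14 (SE, limma adjusted p = 2.45e-04). The value was -1.099 in replicates 1 and 2 and -0.905 in replicates 3 to 5. For *Dkk3* they differed by 0.84 ± 0.16 (SE, limma adjusted p = 2.72e-03), or 0.67 and 0.98 in the respective sets. *Wnt10a*, at 0.80 (limma adjusted p = 0.0562), and *Wnt4*, at -0.64 (limma adjusted p = 0.11), did not pass. With the replicate number as a block the count was 4: *Wnt10a* then passed with a log2 value of 0.80 (limma adjusted p = 1.43e-03), and so did *Fzd5* with 0.60 (limma adjusted p = 0.0243).

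**Figure D3:**
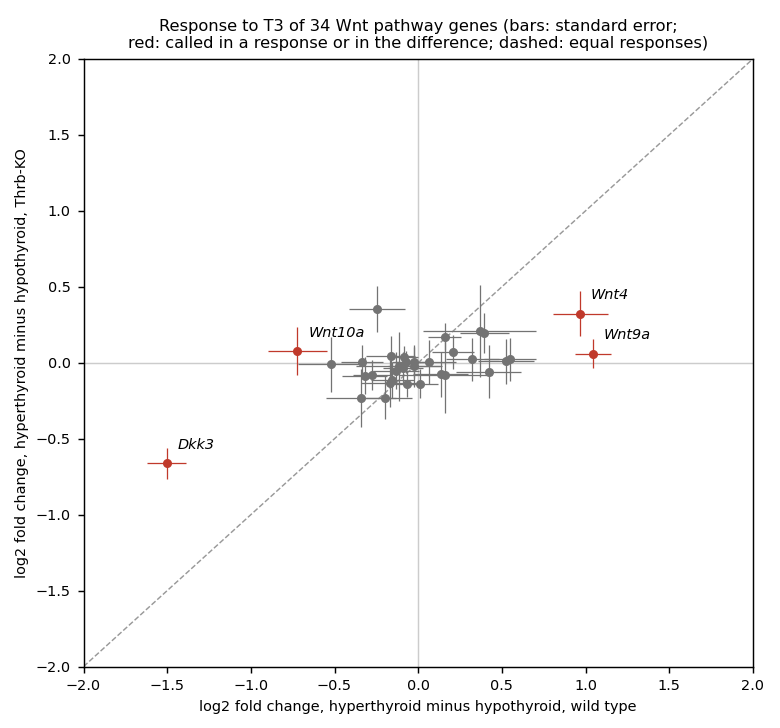
Each point is a tested member, with its log2 fold change with T3 in wild type on the x axis and in *Thrb*-KO on the y axis, standard errors as bars and the dashed line for equal responses. *Dkk3* lies at -1.50 and -0.66, *Wnt9a* at 1.04 and 0.06, and the members in grey lie between -0.52 and 0.55 on the x axis.

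Within hypothyroid mice, *Thrb*-KO was compared with wild type, a contrast that called 397 genes (3.02%) and 2 of the 34 members. *Dkk3* was lower in *Thrb*-KO, 32.5 ± 0.894 CPM (SD, n = 5) against 75.6 ± 10.9 CPM (SD, n = 4), a log2 difference of -1.18 (limma adjusted p = 1.41e-06). *Wnt10a* was lower as well, 9.53 ± 1.099 CPM (SD, n = 5) against 15.7 ± 4.51 CPM (SD, n = 4), a log2 difference of -0.63 (limma adjusted p = 0.0269). Within replicates 3 to 5 the difference of *Wnt10a* was -0.31 (limma adjusted p = 0.291), and leaving out hypothyroid wild-type replicate 1 or 2 or *Thrb*-KO replicate 1, 3 or 4 also ended the call. *Wnt9a* had a log2 difference of 0.57 (limma adjusted p = 1.28e-03), a 1.48-fold value just under the fold limit. It was called in 10 of 34 alternative runs, among them DESeq2 (0.59) and edgeR on unfiltered reads. All 5 *Thrb*-KO libraries of *Wnt9a* lay above all 4 wild-type libraries.

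Within hyperthyroid mice the same comparison called 639 genes (4.86%) and 1 of the 34 members, *Wnt4*. It had 3.79 ± 1.05 CPM in *Thrb*-KO (SD, n = 5) and 6.83 ± 1.099 CPM in wild type (SD, n = 4), a log2 difference of -0.73 ± 0.155 (SE, limma adjusted p = 3.71e-03), and the groups did not overlap. Without the fold limit 8 of the 34 passed (23.5%), against 12.1% of all genes. These were *Wnt4*, *Wnt9a* at -0.42, *Dkk3* at -0.35, *Fzd8* at -0.58, *Tcf7l2* at -0.31, *Axin2* at 0.29, *Wnt2b* at 0.43 and *Fzd5* at 0.52. Apart from *Wnt4* they lay under 1.5-fold, and *Dkk3* had a limma adjusted p of 0.0499. Without hyperthyroid wild-type replicate 3, *Fzd5* (limma adjusted p = 0.101) and *Wnt2b* (limma adjusted p = 0.0866) did not pass.

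The ligands beyond these fell into a measured and a near-silent part. *Wnt5a*, *Wnt2b* and *Wnt5b* passed the CPM limit and were called in none of the 5 limma contrasts. *Wnt5a*, the best known ligand of the branch without β-catenin, had 5.99 ± 1.63 CPM in hypothyroid and 9.11 ± 1.63 CPM in hyperthyroid wild type (SD, n = 4 each). Its log2 value of 0.55 (limma adjusted p = 0.0174) stayed just under the fold limit of 1.5 on the log2(CPM + 1) scale. *Wnt5a* was called for T3 in wild type in 11 of 34 alternative runs. The remaining 13 ligands had mean levels from 0.00520 CPM (*Wnt3a*) to 0.258 CPM (*Wnt6*). *Wnt3a* had no read in 16 of the 18 libraries and *Wnt7a* none in 15, and a count of 0 allows up to 0.0901 CPM on average at this depth. Among the R-spondins *Rspo4* alone was tested, with a log2 value of -0.52 for T3 in wild type (limma adjusted p = 0.0825).

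The limma fit called no Frizzled, LRP or LGR receptor in any of the 5 contrasts. *Fzd3*, the Frizzled receptor with the highest CPM, which guides axons and cell polarity, had 104 ± 22.6 and 83.1 ± 25.3 CPM in hypothyroid and hyperthyroid wild type (SD, n = 4 each), and 102 ± 11.3 and 88.0 ± 20.6 CPM in *Thrb*-KO (SD, n = 5 each). Its log2 value for T3 in wild type was -0.34 (limma adjusted p = 0.320). *Lrp6*, the main co-receptor of the canonical branch, ranged from 89.7 to 212 CPM over the 18 libraries with a log2 value of -0.11 for T3 in wild type (limma adjusted p = 0.853). *Lgr4*, a receptor for R-spondins, had 42.1 ± 6.65 and 37.2 ± 9.40 CPM in hypothyroid and hyperthyroid wild type (SD, n = 4 each) with a log2 value of -0.20 (limma adjusted p = 0.499). Over the 8 tested Frizzled receptors the log2 values for T3 in wild type ran from -0.34 to 0.52 with a median of -0.10.

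*Fzd8*, named here after its values were seen, depended on a library and on the method. It had 10.6, 9.65, 9.16 and 8.52 CPM in hypothyroid wild type and 15.1, 18.7, 8.15 and 16.6 CPM in hyperthyroid wild type, where replicate 3, the library that stood apart, was the lowest. With all libraries its log2 value was 0.52 (limma adjusted p = 0.0320), under the fold limit. Without that replicate *Fzd8* was called, at 0.76 (limma adjusted p = 1.34e-05), and all other hyperthyroid libraries exceeded the hypothyroid ones. With all libraries, edgeR on unfiltered reads, an alternative chosen after seeing the data, also called it for T3 in wild type. That test called 9.51% of all genes. *Fzd8* was called in 6 of 34 alternative runs for T3 in wild type and in 11 of 34 for genotype in hyperthyroid mice. In *Thrb*-KO it lay between 8.22 and 10.3 CPM in all libraries. *Fzd5* was called in no contrast, and its 5 hyperthyroid *Thrb*-KO libraries, at 70.1 to 79.9 CPM, lay above the 4 hyperthyroid wild-type libraries, at 44.1 to 62.2 CPM.

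Of the secreted inhibitors other than *Dkk3*, *Sfrp1*, *Sfrp4* and *Sfrp5* were tested and none was called. *Sfrp5*, which encodes a secreted Frizzled-like decoy, had 13.3 ± 0.844 CPM in hypothyroid and 10.8 ± 0.665 CPM in hyperthyroid wild type (SD, n = 4 each), with libraries that did not overlap and a log2 value of -0.28 (limma adjusted p = 0.105). *Sfrp1* had 1.91 ± 0.423 and 1.65 ± 0.393 CPM there (SD, n = 4 each), with a log2 value of -0.13 (limma adjusted p = 0.621). *Dkk1* and *Dkk4*, both antagonists of LRP5/6, and *Wif1*, which binds Wnts, had mean levels of 0.00671, 0.0294 and 0.0577 CPM, under the limit of detection.

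No Dishevelled gene, β-catenin or member of the destruction complex was called in any of the 5 limma contrasts. *Ctnnb1* had 320.0 ± 16.1 and 317 ± 49.5 CPM in hypothyroid and hyperthyroid wild type (SD, n = 4 each). In *Thrb*-KO it had 329 ± 25.5 and 331 ± 40.4 CPM (SD, n = 5 each), and its log2 value for T3 in wild type was -0.03 ± 0.11 (SE, limma adjusted p = 0.929). *Apc* had 163 ± 38.0 and 221 ± 64.8 CPM in hypothyroid and hyperthyroid wild type (SD, n = 4 each), a log2 value of 0.42 (limma adjusted p = 0.161). *Axin1*, the constant scaffold of the destruction complex, ranged from 31.9 to 44.9 CPM with a log2 value of -0.09 (limma adjusted p = 0.604). *Dvl3*, which relays the signal from Frizzled to AXIN, had a log2 value of 0.21 (limma adjusted p = 0.311), and *Dvl2* one of -0.09 (limma adjusted p = 0.707).

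*Axin2* is itself switched on by β-catenin and is widely read as a reporter of canonical signalling. It had 33.1 ± 2.49 and 31.4 ± 2.91 CPM in hypothyroid and hyperthyroid wild type (SD, n = 4 each) and 38.3 ± 2.04 and 38.4 ± 2.39 CPM in *Thrb*-KO (SD, n = 5 each). The log2 value of *Axin2* for T3 was -0.07 in wild type (limma adjusted p = 0.653) and 0.01 in *Thrb*-KO (limma adjusted p = 1). In both treatments every *Thrb*-KO library lay above every wild-type library, by a log2 difference of 0.21 in hypothyroid (limma adjusted p = 0.143) and 0.29 in hyperthyroid mice (limma adjusted p = 0.0211), a 1.22-fold difference under the limit for a call. Groups were separated in this way for 14.3% of all tested genes in hypothyroid and 11.3% in hyperthyroid mice. Exons of *Axin2* overlap those of *Gm11670*, and reads shared by the genes cannot be told apart in the table. The same limit holds for other members. Among them are *Ctnnb1* with *Ulk4*, *Dvl2* with *Acadvl* and *Mir324*, *Wnt5a* with *Gm2670*, *Sfrp2* with *Gm16790* and *Tcf7l1* with *Gm15401*.

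The 3 tested TCF/LEF factors, which carry β-catenin to DNA, were not called either. *Tcf7l2* had 13.4 ± 1.03 and 12.7 ± 0.351 CPM in hypothyroid and hyperthyroid wild type (SD, n = 4 each) and 11.2 ± 1.24 and 10.0 ± 0.973 CPM in *Thrb*-KO (SD, n = 5 each). *Tcf7l1*, mostly a repressor, had a log2 value of 0.01 for T3 in wild type (limma adjusted p = 0.968), and *Tcf7* one of -0.34 (limma adjusted p = 0.0665). *Lef1*, which marks progenitor zones of several tissues, was too low for the tests, with 1.02 ± 0.324 and 1.28 ± 0.247 CPM in wild type (SD, n = 4 each) and 0.643 ± 0.0616 and 1.17 ± 0.188 CPM in *Thrb*-KO (SD, n = 5 each). In a fit to the 14472 genes above 1 CPM in at least 4 libraries, *Lef1* had a log2 value of 0.40 for T3 in *Thrb*-KO (limma adjusted p = 0.0536). The *Thrb*-KO libraries did not overlap, with 0.608 to 0.753 CPM of *Lef1* in hypothyroid and 0.979 to 1.42 CPM in hyperthyroid mice. edgeR's quasi-likelihood test on the recovered reads of all genes, an alternative chosen after seeing the data, called *Lef1* there with a log2 value of 0.88 (adjusted p = 0.0243), and 1.27% of all genes.

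That wider fit took in 5 further members, *Dkk2*, *Fzd9*, *Lef1*, *Rspo3* and *Sfrp2*, and called none of them, where it called 10.4%, 1.33%, 5.13%, 3.54% and 5.65% of all genes for T3 in wild type, T3 in *Thrb*-KO, the interaction and genotype in hypothyroid and hyperthyroid mice. *Sfrp2* had 1.01 ± 0.256 CPM in hypothyroid and 1.80 ± 0.197 CPM in hyperthyroid wild type (SD, n = 4 each), libraries that did not overlap, with a log2 value of 0.49 (limma adjusted p = 4.15e-03) that is compressed by the pseudocount at this level. *Fzd9* fell from 1.54 ± 0.248 CPM in hypothyroid to 0.947 ± 0.0997 CPM in hyperthyroid wild type (SD, n = 4 each), again without overlap. Its log2 value was -0.38 (limma adjusted p = 0.0341), under the fold limit. *Fzd10*, named after its values were seen, lay near the limit of detection in hypothyroid wild type with 0.171, 0.117, 0.0459 and 0.0363 CPM. All other groups of *Fzd10* were higher, at 0.243 to 0.393 CPM in hyperthyroid wild type and at 0.230 to 0.491 CPM in hypothyroid and 0.284 to 1.07 CPM in hyperthyroid *Thrb*-KO. Both differences from hypothyroid wild type that the contrasts hold passed the same edgeR test on unfiltered reads (quasi-likelihood, adjusted p = 0.0117 for T3 in wild type and 0.0175 for *Thrb*-KO under hypothyroidism). That test called 9.51% and 3.73% of all genes in these contrasts.

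A list of 65 other genes of the pathway was read in the same way, and 55 of the 63 in the table were tested. T3 in wild type raised 4 and lowered 4 of them (14.5%, against 9.46% of all genes). *Gpc4*, a glypican that carries Wnt and other ligands on the cell surface, fell from 296 ± 23.5 to 89.7 ± 13.2 CPM (SD, n = 4 each), a log2 value of -1.72 (limma adjusted p = 4.62e-10). *Cd44*, a hyaluronan receptor and a known target of β-catenin, fell by 1.65 on the log2 scale, and *Kremen1*, a co-receptor for DKK1, by 0.98. *Prickle1*, of the planar cell polarity branch, fell by 0.60. *Tnfrsf19* rose with a log2 value of 0.94, *Myc*, a classical β-catenin target, with 0.78, the kinase gene *Csnk1e* with 0.62 and *Daam2*, which binds Dishevelled, with 0.60. In *Thrb*-KO none of the 55 was called. The interaction called *Cd44*, *Gpc4*, *Kremen1*, *Myc* and *Tnfrsf19*, with the wild-type response the larger in size for each.

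Some markers of the cell types in the gland differed with the same treatments, and most did not. Of 42 tested markers in 13 lists, 3 were higher and 4 lower with T3 in wild type, where 9.46% of all genes were called. The thyrotroph list (*Tshb*, *Trhr*) fell in both genotypes with 2 of 2 genes called, from summed levels of 2967 to 6525 CPM to 44.0 to 425 CPM in wild type and from 3239 to 4859 CPM to 91.0 to 174 CPM in *Thrb*-KO. The others were *Gh*, *Prl* and *Slc17a7*, which rose, and *Col1a1* and *Slc17a6*, which fell. None of the 4 tested markers of stem and folliculostellate cells was called for T3 in wild type, and their list summed to 83.4 to 92.9 CPM in hypothyroid and 88.7 to 105 CPM in hyperthyroid wild type. In hyperthyroid *Thrb*-KO the same list summed to 63.4 to 82.0 CPM. Against hyperthyroid wild type, where 4.86% of all genes were called, 1 of the 42 markers was lower and 2 were higher. The lower one was *Aldh1a2* of this list, and the higher ones were *Trhr* and *Slc17a6*. Macrophage and immune markers summed to 52.2 to 57.5 CPM in hypothyroid wild type and 30.3 to 36.1 CPM in hypothyroid *Thrb*-KO. In that contrast, which called 3.02% of all genes, 4 of the 42 markers were called lower and 1 higher. The lower ones were *Csf1r* of this list and *Trhr*, *Pcsk2* and *Col1a2* of other lists, and the higher one was *Slc17a6*. A list meant for neighbouring brain held *Snap25*, *Slc17a6*, *Slc17a7* and the glial gene *Gfap*, and is not particular to neurons. It summed to 223 to 267 CPM in hypothyroid wild type and 332 to 356 CPM in hypothyroid *Thrb*-KO, with *Slc17a6* alone called. The part of these shifts in the changes of *Dkk3*, *Wnt9a*, *Wnt4* and *Wnt10a* was not tested.

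TRβ binding near the members was read from the deposited peak lists of untreated mice, 8051 peaks in pituitary and 5164 in cortex, in mm9 coordinates. These lists do not show binding in the hypothyroid and hyperthyroid states that the RNA compares. Peaks had been called on merged libraries, so that single peaks carry no replicate error. The control libraries are named BirA by their titles, while their genotype labels give the tagged receptor, and the control reads below rest on the titles. With a window of 20 kb around each gene body, 21 of the 58 members had a pituitary peak. Among the tested members it was 15 of 34 (44.1%), against 41.3% of all tested genes with coordinates. A cortex peak lay near 12 of the 34 (35.3%, against 34.9% of all) and a T3-regulated ATAC peak near 4 of the 34 (11.8%, against 7.79% of all). These shares lie near those of all genes. The members' 26 distinct pituitary peaks held a median of 15.5 HAB reads, against 18 over the whole list, 4 of them overlapped a cortex peak and none overlapped a T3-regulated ATAC peak.

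Among the genes called for T3, the 3 ligands had pituitary peaks within 20 kb in untreated mice and *Dkk3* had none. At *Wnt9a* (chr11:59120430-59147054, plus strand) a peak at chr11:59121301-59122000 lay in an intron 871 bp downstream of the transcription start, with 67 reads from HAB mice against 9 from controls (false discovery rate in the list 2.43e-30). A smaller peak lay 980 bp upstream, with 14 reads against 2. The same peaks lie 17047 and 14797 bp from the near-silent neighbour *Wnt3a*, and the nearest cortex peak to *Wnt9a* was 126580 bp away. At *Wnt4* (chr4:136833404-136855641, plus strand) a small peak of 12 reads against 1 ended 1504 bp upstream of the start. At *Wnt10a* (chr1:74838090-74850753, plus strand) a peak of 28 reads against 4 lay 2798 bp beyond the gene end, and a peak of 144 reads against 4 lay 12598 bp beyond it. The latter ranked 25 by HAB reads among the 8051 pituitary peaks, and both overlapped cortex peaks, with 19 reads against 3 and 61 against 5. For *Dkk3* (chr7:119259533-119302571, minus strand) the nearest pituitary peak was 66330 bp and the nearest cortex peak 43730 bp from the gene body.

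**Figure D4:**
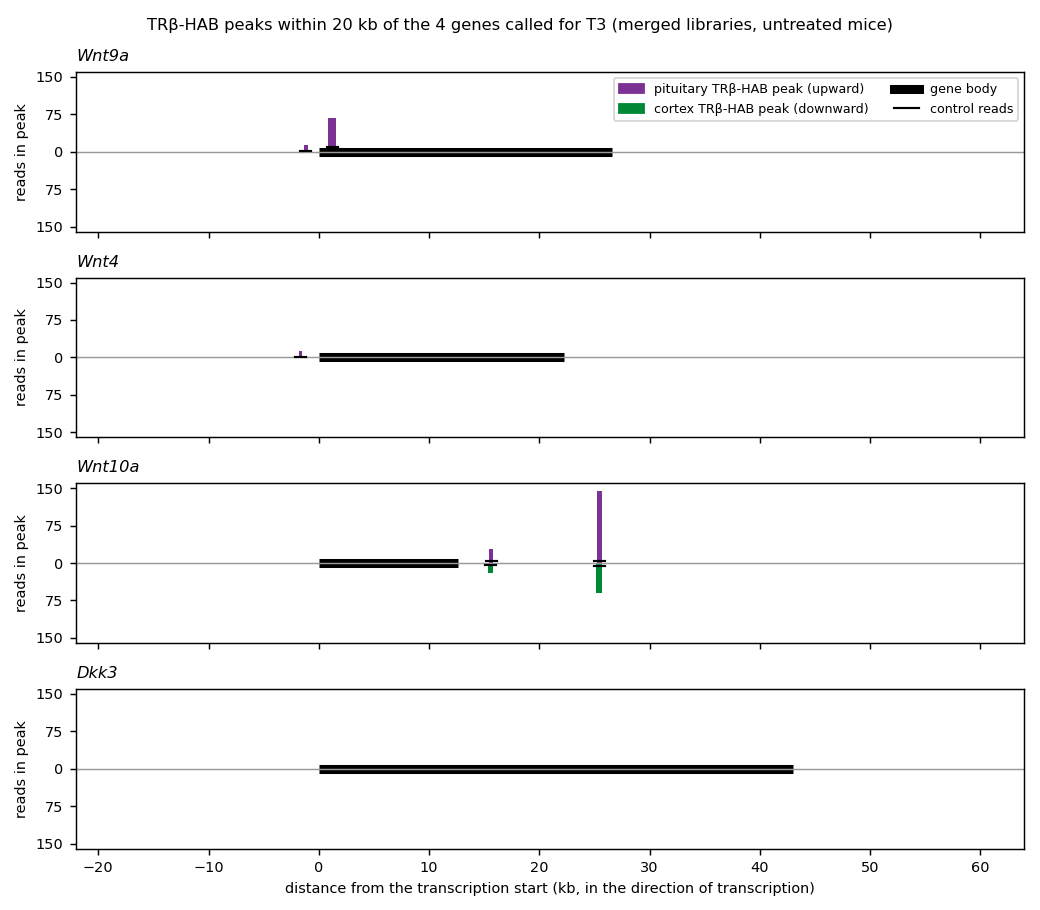
Each panel shows a gene as a black bar, with distance from its transcription start in kb on the x axis and the reads of each TRβ-HAB peak within 20 kb on the y axis, pituitary upward and cortex downward, and short black lines for control reads. The peaks of *Wnt9a* and *Wnt4* appear in the pituitary list, both peaks of *Wnt10a* appear in both tissues with 144 and 61 reads at the stronger, and *Dkk3* has none.

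The sequence under the strongest pituitary peak of each called ligand and of *Axin2* is printed because these regions carry the most TRβ reads within 20 kb of the members that the comparisons turn on. Each is a stretch of at most 300 bases, plus strand of mm9, 5′ to 3′, taken from the middle of the peak for *Wnt9a*, the whole peak for *Wnt4*, and around the repeat match for *Wnt10a* and *Axin2*. Capitals mark the copies of a direct repeat with a 4 base spacer, read as AGGTCA, 4 bases of any kind and AGGTCA on either strand, allowing 2 mismatches in the 12 fixed bases, the form known to bind a TRβ and RXR pair. In *Wnt10a* and *Axin2* the match is on the minus strand, so that the plus strand shows it reversed.
Wnt9a, chr11:59121501-59121800: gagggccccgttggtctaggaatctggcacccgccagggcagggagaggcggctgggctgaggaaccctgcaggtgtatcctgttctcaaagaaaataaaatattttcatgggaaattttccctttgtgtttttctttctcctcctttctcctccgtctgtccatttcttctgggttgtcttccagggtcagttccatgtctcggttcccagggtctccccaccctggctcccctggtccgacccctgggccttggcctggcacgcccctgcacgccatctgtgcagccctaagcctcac
Wnt4, chr4:136831651-136831900: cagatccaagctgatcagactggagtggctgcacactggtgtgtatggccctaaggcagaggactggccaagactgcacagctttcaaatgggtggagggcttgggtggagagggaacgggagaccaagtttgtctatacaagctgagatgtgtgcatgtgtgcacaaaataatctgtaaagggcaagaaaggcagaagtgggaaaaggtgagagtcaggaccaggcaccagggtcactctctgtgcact
Wnt10a, chr1:74863385-74863684: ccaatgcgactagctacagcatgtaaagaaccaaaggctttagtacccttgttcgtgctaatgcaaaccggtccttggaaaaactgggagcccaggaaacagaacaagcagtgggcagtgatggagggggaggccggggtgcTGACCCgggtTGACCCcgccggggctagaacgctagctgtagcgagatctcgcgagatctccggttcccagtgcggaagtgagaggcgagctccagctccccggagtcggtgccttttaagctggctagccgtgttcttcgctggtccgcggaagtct
Axin2, chr11:108779277-108779576: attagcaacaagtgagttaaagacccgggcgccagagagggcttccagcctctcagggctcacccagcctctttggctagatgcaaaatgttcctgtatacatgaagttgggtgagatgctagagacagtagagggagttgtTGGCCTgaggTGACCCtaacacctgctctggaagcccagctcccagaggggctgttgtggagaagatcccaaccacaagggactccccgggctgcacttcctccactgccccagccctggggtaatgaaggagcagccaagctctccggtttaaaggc

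The peak regions of *Wnt9a* and *Wnt4* held no such match, with at best 8 of the 12 bases. The *Axin2* peak, 66 reads against 7, ended 2063 bp upstream of the transcription start of *Axin2*. Over the 26 peaks a match was present in 6 (23.1%), against 20.9% of all 8051 pituitary peaks. All 6 matched 10 of 12 bases, and with at most 1 mismatch none remained, against 3.94% of all peaks. With at most 3 mismatches the order turned, 42.3% of the 26 against 55.0% of all peaks. Of these, 5 are shown on their own strands, with the copies of the repeat in capitals.
Wnt10a, beyond the gene end, chr1:74863527-74863542, minus strand: GGGTCAacccGGGTCA
Axin2, upstream, chr11:108779419-108779434, minus strand: GGGTCAcctcAGGCCA
Lgr4, upstream in a peak that covers the transcription start, chr2:109757696-109757711, minus strand: TGGTCAggggAGGTCT
Lrp6, intron, chr6:134477178-134477193, plus strand: AGGTGAgcctGGGTCA
Rspo3, intron, chr10:29235352-29235367, plus strand: AGGTGAacagAGGACA

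The sixth match lay in an intron of *Apc*, under a peak of 42 reads against 1. None of *Axin2*, *Lgr4*, *Lrp6* and *Apc* was called for T3 in wild type, and *Rspo3*, in the wider fit, had a log2 value of 0.45 (limma adjusted p = 0.124). Further pituitary peaks lay at *Ctnnb1*, with 11 reads against 0 in an untranslated exon, in a *Tcf7l2* intron with 15 against 2, in a *Lgr4* intron with 38 against 1, and over the start of *Dvl3* with 14 against 2. T3-regulated ATAC peaks lay in an intron of *Sfrp1*, 15550 bp upstream of *Lrp6*, 11043 bp from *Sfrp5* within *Zfyve27*, and 2894 bp from *Dvl2* over the start of *Acadvl*. Their adjusted p-values in the deposited list were 7.53e-03, 1.02e-04, 0.0197 and 0.0253, from edgeR by the methods and from SICER by a figure legend. The list gives no direction. None of the 4 genes called for T3 had such a peak within 20 kb, the nearest being 65111 bp from *Wnt10a*, 89839 bp from *Wnt9a*, 332688 bp from *Dkk3* and 1592801 bp from *Wnt4*.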

How the data were processed

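Pituitary RNA-seq, TRβ ChAP-seq and ATAC-seq files were used as deposited. The authors mapped RNA reads to RefSeq transcripts (mm9) with BBMap and deposited CPM per transcript, not divided by length. Whole reads were recovered from the CPM steps (100% whole within 0.02 reads). The authors called TRβ peaks with SICER (version 1.1 in the submitters' notes) on merged libraries, and the deposited lists give the read count of HAB and control libraries per peak. They also give the fold over control and the false discovery rate (FDR, a q-value) as the authors' values. The deposited ATAC list gives an adjusted p-value only. A p-value column of the ChAP lists was not used.

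One transcript per gene (highest mean CPM) entered limma 3.58.1 (R 4.3.3; lmFit, eBayes with trend) on log2(CPM + 1), in a model of all 18 libraries and 4 groups, for genes above 1 CPM in every library. Calls needed a Benjamini-Hochberg adjusted p under 0.05 and 1.5-fold. edgeR 4.0.16 and DESeq2 1.42.0 on recovered reads, pseudocounts, filters, fold limits, library sets, blocks and left-out libraries were alternatives. The code was tested on simulated data. Members and gene lists were chosen with earlier results of these data known. By rule, the members named were those called in any contrast, those with an ATAC peak within 20 kb, β-catenin with its destruction complex, the TCF/LEF factors, and the member of each role class with the highest mean CPM. All other members named were added after their values were seen.

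Same-numbered libraries of different groups deviated together in all 25 pairs (r = 0.130 to 0.815), so the replicate number was fitted as a block in an alternative. Libraries with other numbers of the same set did so as well (r = 0.271 to 0.755), and 6 of 18 libraries correlated best with their own number. P-values measure the spread between pools of 3 pituitaries, which in the main model includes the difference between the library sets. Depth, as read counts summed over all transcripts, was 21453548 to 55273749, and floors of 3 reads cover counting error only. Peaks were placed on NCBIM37 (mm9) with GENCODE vM1, and the sequences were read from that genome with pysam 0.24.0.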

Additional observations from a re-analysis of the deposited data

Results flagged for a closer look

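The difference between the genotypes in the response to T3 drew attention for *Dkk3*, with a log2 value of 0.84 (limma adjusted p = 2.72e-03), and for *Wnt9a*, with -0.99 (limma adjusted p = 2.45e-04), both from the interaction test. A library lay far from the others of its group for *Lef1* in hypothyroid *Thrb*-KO, where replicate 2 held 0.753 CPM and the next highest 0.625 CPM. The same was seen for *Tcf7l1* in hyperthyroid *Thrb*-KO, where replicate 3 held 10.2 CPM and the next highest 8.30 CPM. Chance alone marks about 1 in 20 groups in this way, and 76 groups were examined.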

How the results depend on the processing

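The calls of *Dkk3* in 4 contrasts, of *Wnt9a* in 2 and of *Wnt4* in 2 held in every alternative run, and no result changed sign. The count for T3 in *Thrb*-KO was 1 except with edgeR on unfiltered reads, which gave 2 of 58 (*Lef1* added). For T3 in wild type it was 4 to 7 with a library left out (7 without hyperthyroid wild-type replicate 3, which added *Apc*, *Fzd8* and *Wnt5a*) and 8 of 58 with edgeR on unfiltered reads. The interaction count of 2 became 4 with DESeq2, 4 with the replicate block, 4 with the library set as a block, 5 in replicates 1 and 2 only and 5 with the library set block and the wider filter. It was 2 to 4 with a library left out (4 without hypothyroid wild-type replicate 4). The replicate block changed no other call. For *Thrb*-KO in hypothyroid mice the count was 4 with DESeq2, 4 with edgeR on unfiltered reads and 1 to 3 with a library left out (1 without wild-type replicate 1 or 2 or *Thrb*-KO replicate 3, which removed *Wnt10a*). In hyperthyroid mice it was 2 with a pseudocount of 0.1 or 0.5, 2 with TMM scaling, 2 in either library set, 2 with edgeR on unfiltered reads, 3 with edgeR on filtered reads, 3 with DESeq2, 8 without the fold limit and 1 to 2 with a library left out (2 without wild-type replicate 1, which added *Fzd5*, or without wild-type replicate 3 or *Thrb*-KO replicate 1 or 5, which added *Fzd8*). The cause of these shifts was not tested.

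Members with a pituitary peak numbered 11 by gene body overlap, 44 within 100 kb and 12 with the better-ranked peaks only. For cortex the numbers were 4 by gene body, 8 within 5 kb, 24 within 50 kb, 36 within 100 kb and 8 with the better-ranked peaks, and for ATAC 1, 2, 8, 13 and 1. Repeat matches fell to 0 of 26 peaks with at most 1 mismatch and rose to 11 with at most 3. Depth limits members under 0.0901 CPM.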
